A study of Mus musculus with 12 samples.

Results

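Nucleic acid sensors are the proteins by which a cell detects foreign or misplaced RNA and DNA. Of the 24054 genes of the deposited tables, 10 were described here: the cytosolic RNA helicases Ifih1, Ddx58 and Dhx58 with their adaptor Mavs, the DNA-sensing adaptor Tmem173, the Z-form nucleic acid sensor Zbp1, the double-stranded RNA effectors Eif2ak2 and Adar, and the endosomal receptors Tlr7 and Tlr9. They were chosen by name, as sensors of the RNA and DNA that retroelements can give rise to when silencing by Setdb1 is lost, and the rule used no measured value, although earlier results of these data were known when it was set. All 10 were present in the tables under these symbols. Retroelement families were not analysed here.

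RNA was sequenced from mouse fetal liver at E13.5, and the labels say Setdb1 mutant or control. Setdb1 encodes a histone methyltransferase that places a silencing mark on lysine 9 of histone H3. From cells with the LSK markers of early blood cells, long-term haematopoietic stem cells (LT-HSC, CD150+ CD48-) and multipotent progenitors (MPP, CD150- CD48+) were sorted, with 3 mutant and 3 control libraries for each cell type. All 6 mutants were Setdb1 p/p;vav-cre. Of the controls, 3 had the transgene as Setdb1 +/p;vav-cre, namely MPP control 3 with LT-HSC controls 2 and 3. The other 3, MPP controls 1 and 2 with LT-HSC control 1, had none and were Setdb1 +/p;+/+. Every fetus therefore carried at least 1 p allele, which the labels do not define. The vav-cre transgene is used to make Cre recombinase in blood cells, and its activity in other cells of the liver was not tested. The labels give 500 to 1000 sorted cells for LT-HSC and 20000 for MPP, and do not say that libraries came from separate fetuses, so a p-value here reflects the scatter of libraries, which may be technical.

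Totals lay between 10119416 and 14113198 expected counts per library. The sort markers followed the gates: Slamf1, which encodes CD150, stood at 36.8 ± 1.88 CPM in control LT-HSC and 1.80 ± 0.556 CPM in control MPP, and Cd48 at 14.5 ± 3.19 and 229 ± 29.0 CPM in control LT-HSC and control MPP (SD, n = 3 each). CPM here is counts per 1e+06 counts after TMM scaling. Setdb1 was present in all libraries, with 71.1 ± 7.80 CPM in LT-HSC mutants and 88.6 ± 17.6 CPM in LT-HSC controls, and with 101 ± 15.1 CPM in MPP mutants and 108 ± 28.9 CPM in MPP controls (SD, n = 3 each). By edgeR's quasi-likelihood test neither difference was called (adjusted p = 0.651 in LT-HSC and 0.598 in MPP). A gene-level total does not show whether an exon is missing, and so does not check the genotype labels. The LT-HSC mutant libraries were the most unlike each other, with a chi-square per gene of 26.1, 36.1 and 50 between pairs, against 5.22 to 20.3 in the other groups. MPP mutant 2, MPP control 3 and LT-HSC control 2 were male by their Y-linked and Xist transcripts.

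In textbook terms, Ifih1 (MDA5) binds long double-stranded RNA and Ddx58 (RIG-I) binds RNA ends that carry a triphosphate. Both signal through Mavs on mitochondria, while Dhx58 (LGP2) lacks the signalling domain and tunes the other helicases. Tmem173 (STING) is switched on by the cyclic dinucleotide that cGAS makes on cytosolic DNA. Eif2ak2 (PKR) stops translation when bound to double-stranded RNA, Adar edits adenosines in such RNA to inosine and so restrains Ifih1, and Zbp1 can trigger necroptosis through Ripk3. Tlr7 and Tlr9 detect single-stranded RNA and unmethylated DNA in endosomes and are known from plasmacytoid dendritic cells, B cells and macrophages. Several of these genes are themselves induced by interferon.

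Promoter windows of RefSeq (GRCm38.p6, 250 bases before to 50 after a gene's start) were matched for 6 members: Ifih1, Ddx58, Mavs, Tlr9, Eif2ak2 and Adar, the last with 3 starts. They are shown because Ifih1, Ddx58, Eif2ak2 and Adar varied together across the libraries, while Mavs varied less. Capitals mark matches, on either strand, to GAAANNGAAA or its shorter form GAAANNGAA, which resemble the element bound by interferon-activated factors. A match to the longer form is also a match to the shorter one, and neighbouring matches can overlap.
Ifih1, chr2:62646206-62646505, minus strand: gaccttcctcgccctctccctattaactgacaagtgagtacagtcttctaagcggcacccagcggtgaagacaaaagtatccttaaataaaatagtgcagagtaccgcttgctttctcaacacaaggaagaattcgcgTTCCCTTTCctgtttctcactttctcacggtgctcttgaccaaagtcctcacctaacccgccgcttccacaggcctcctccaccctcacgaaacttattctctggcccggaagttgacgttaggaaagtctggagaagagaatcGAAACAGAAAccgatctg
Ddx58, chr4:40239776-40240075, minus strand: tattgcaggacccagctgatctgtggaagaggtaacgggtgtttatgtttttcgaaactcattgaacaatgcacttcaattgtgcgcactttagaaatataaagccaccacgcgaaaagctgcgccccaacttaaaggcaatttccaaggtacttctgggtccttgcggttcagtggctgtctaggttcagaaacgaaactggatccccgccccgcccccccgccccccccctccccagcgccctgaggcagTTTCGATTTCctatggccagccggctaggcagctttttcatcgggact
Eif2ak2, chr17:78882523-78882822, minus strand: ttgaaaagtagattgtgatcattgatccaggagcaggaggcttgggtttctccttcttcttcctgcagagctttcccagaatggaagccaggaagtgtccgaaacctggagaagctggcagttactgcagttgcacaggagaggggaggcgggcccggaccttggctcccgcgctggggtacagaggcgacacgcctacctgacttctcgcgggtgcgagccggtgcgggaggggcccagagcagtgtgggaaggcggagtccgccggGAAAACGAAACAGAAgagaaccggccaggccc
Adar, chr3:89730468-89730767, plus strand: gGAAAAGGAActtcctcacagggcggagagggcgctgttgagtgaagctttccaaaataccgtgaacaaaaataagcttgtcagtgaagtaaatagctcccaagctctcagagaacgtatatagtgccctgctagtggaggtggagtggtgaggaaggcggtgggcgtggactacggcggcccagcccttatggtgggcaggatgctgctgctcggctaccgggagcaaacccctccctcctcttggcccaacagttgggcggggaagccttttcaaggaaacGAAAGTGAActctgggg
Mavs, chr2:131233813-131234112, plus strand: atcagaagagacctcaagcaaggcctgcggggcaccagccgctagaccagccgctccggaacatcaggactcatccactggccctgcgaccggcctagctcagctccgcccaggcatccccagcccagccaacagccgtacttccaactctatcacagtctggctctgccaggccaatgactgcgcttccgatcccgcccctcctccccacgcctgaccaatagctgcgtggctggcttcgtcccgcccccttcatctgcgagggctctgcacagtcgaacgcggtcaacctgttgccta

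The longer form was found once each in Ifih1 (bases 32 to 41, counted from the start base as 0), Ddx58 (bases 2 to 11) and Eif2ak2 (bases 18 to 27), all of them downstream of the start. It was found in 1131 of 32851 windows of the same length in the table, or 3.44%. The shorter form was found in 8.56% of windows, and the Adar window above held 2 matches to it, the first from base -249 to -241. The Mavs and Tlr9 windows and the other Adar windows held neither form. A match is a run of letters and no measured binding site, and a window without a match says only that these letters are not in it.

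The members lie on 8 chromosomes in GRCm38, with Ifih1 at chr2:62595618-62646255, Mavs at chr2:131234063-131248025, Zbp1 at chr2:173206612-173218959, Adar at chr3:89714469-89753455, Ddx58 at chr4:40203777-40239825, Tlr9 at chr9:106222598-106226876, Dhx58 at chr11:100694884-100704271, Eif2ak2 at chr17:78850504-78882572, Tmem173 at chr18:35733678-35740554 and Tlr7 at chrX:167303380-167330574. The library kit does not keep the strand, so reads from opposite strands cannot be told apart. Chrnb2 covers 16.81% of the exon bases of Adar from the opposite strand, and its own mean level was 0.800 to 1.09 CPM in the groups. Antisense or other genes cover 4.31% of the exon bases of Dhx58 (Dhx58os) and 3.40% of those of Eif2ak2 (Gm26637).

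Before comparing groups, the members were ranked by level per length with the authors' TPM values. In control MPP, Tmem173 was highest at 142 ± 6.17 TPM, followed by Adar at 42.2 ± 7.36, Mavs at 30.4 ± 3.36, Dhx58 at 28.4 ± 10.3, Eif2ak2 at 20.7 ± 5.20, Ddx58 at 19.9 ± 5.34, Zbp1 at 17.0 ± 5.51, Tlr7 at 9.37 ± 2.18, Ifih1 at 8.18 ± 1.93 and Tlr9 at 0.297 ± 0.0666 TPM (SD, n = 3 each). The libraries of neighbours in this order overlapped, except between Tmem173 and Adar, between Zbp1 and Tlr7, and between Ifih1 and Tlr9. In control LT-HSC the order opened with the same 4 genes, at 73.0 ± 2.44 TPM for Tmem173, 47.7 ± 15 for Adar, 36.9 ± 2.80 for Mavs and 34.4 ± 7.73 for Dhx58, and ended with Zbp1 at 2.95 ± 1.25, Tlr7 at 1.71 ± 1.06 and Tlr9 at 0.0133 ± 0.0231 TPM (SD, n = 3 each). Summed over the 10 members, the level per library was 161 to 326 TPM in LT-HSC mutants, 231 to 293 TPM in LT-HSC controls, 155 to 203 TPM in MPP mutants and 274 to 355 TPM in MPP controls.

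**Figure D1:**
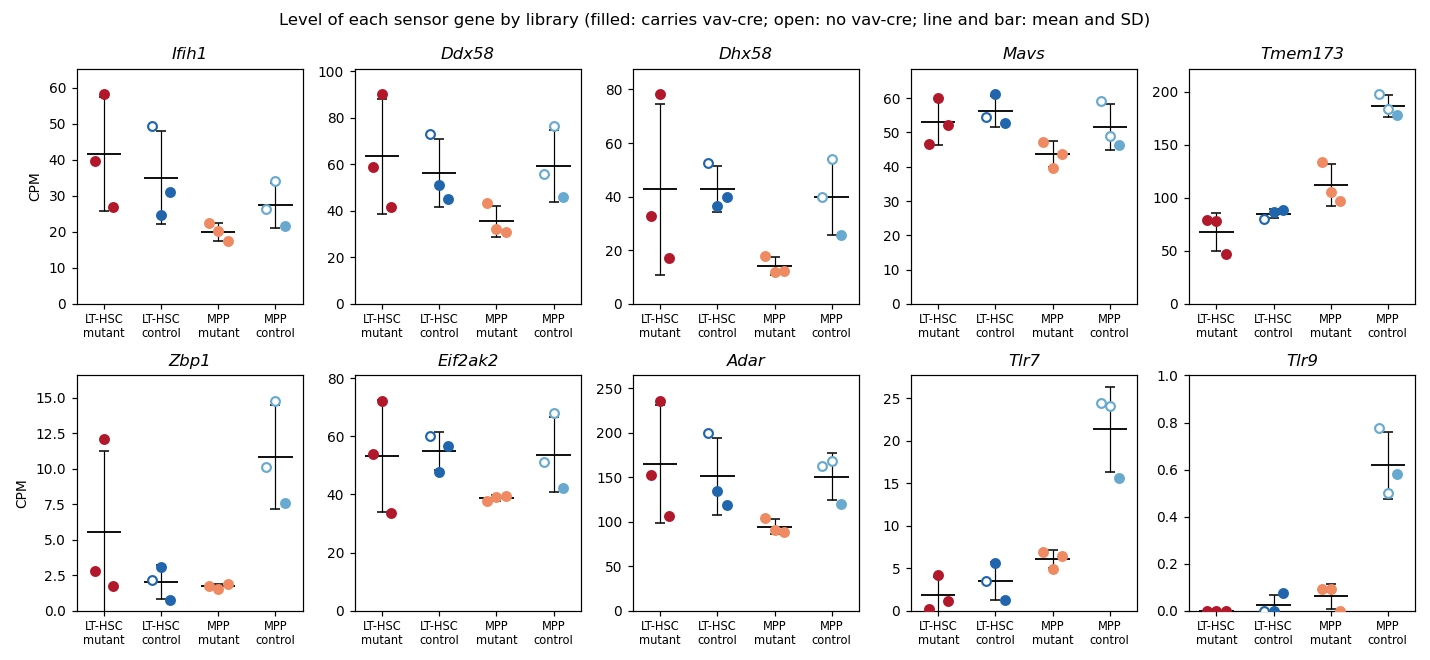
CPM of each sensor gene (vertical axes, each from 0) in the 12 libraries, by group; filled points carry vav-cre and open points do not, and lines and bars give the mean and SD of 3 libraries. In MPP, the 3 mutants lie below the 3 controls for 8 of the 10 genes, all but Ifih1 and Mavs (25.0% of all genes tested do so), while in LT-HSC the groups overlap for all but Tmem173.

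The first comparison set MPP mutants against MPP controls. All MPP mutants carried vav-cre and MPP controls 1 and 2 did not, so the comparison is not of Setdb1 alone. Most sensors were lower in the mutants. Of the 9 members tested, 7 were called by edgeR's quasi-likelihood test with Benjamini-Hochberg adjustment over all genes (threshold 0.05), and all 7 were lower: Zbp1, Tlr7, Dhx58, Ddx58, Tmem173, Adar and Eif2ak2. In this comparison 35.0% of all 12392 genes tested were called, and 18.5% of all were called lower. The median log2 fold change, mutant over control, was -0.75 over the 9 members and -0.013 over all genes tested. No member was called higher. All 9 log2 fold changes were below 0, as were those of 51.2% of all genes tested. The 3 mutants were below the 3 controls for 7 of the 9 members tested, and for 25.0% of all genes tested.

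Among the RNA helicases, Dhx58 fell most, with 18.0, 11.9 and 12.3 CPM in MPP mutants 1 to 3 and 39.7, 54.1 and 25.8 CPM in MPP controls 1 to 3. All 3 mutants were below the lowest control, and the log2 fold change was -1.52 (SE 0.252, adjusted p = 0.000922). Ddx58 fell too, with 43.2, 32.3 and 30.7 CPM in the mutants and 55.7, 76.3 and 46.1 CPM in the controls. Here the highest mutant came close to the lowest control (log2 fold change -0.76, SE 0.188, adjusted p = 0.00914). Ifih1 had 22.4, 20.2 and 17.4 CPM in the mutants and 26.3, 34.0 and 21.7 CPM in the controls, so the groups overlapped, and its log2 fold change of -0.46 (SE 0.176) missed the threshold (adjusted p = 0.0602). It passed under upper-quartile scaling (-0.52, adjusted p = 0.038) and without MPP control 3 (-0.60, adjusted p = 0.0175), with adjusted p between 0.0175 and 1.0 over 15 alternatives. The adaptor Mavs, with 47.3, 39.7 and 43.8 CPM in the mutants and 59.1, 49.1 and 46.3 CPM in the controls, overlapped as well and was not called (log2 fold change -0.26, SE 0.123, adjusted p = 0.13).

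Among the effectors, Zbp1 had the largest fold change of the 9 members tested. It had 1.74, 1.54 and 1.85 CPM in MPP mutants and 10.1, 14.8 and 7.61 CPM in MPP controls. The mutants lay close together, and the lowest control was well above all of them (log2 fold change -2.67, SE 0.285, adjusted p = 5.05e-05). Adar, which edits double-stranded RNA, had 104, 90.9 and 88.0 CPM in the mutants and 163, 168 and 120 CPM in the controls, with no overlap (log2 fold change -0.69, SE 0.131, adjusted p = 0.00215). Eif2ak2 had 37.6, 39.1 and 39.4 CPM in the mutants and 51.2, 67.9 and 42.2 CPM in the controls. It passed narrowly (log2 fold change -0.49, SE 0.156, adjusted p = 0.0306), and its call was lost without MPP control 2 (-0.27, adjusted p = 0.162) or without any 1 of the mutants (adjusted p = 0.0776, 0.0853 and 0.0825 without mutants 1, 2 and 3), with adjusted p between 0.00435 and 1.0 over 15 alternatives.

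Tmem173, the DNA-sensing adaptor, had 134, 105 and 97.1 CPM in MPP mutants and 198, 184 and 178 CPM in MPP controls. The highest mutant was below the lowest control (log2 fold change -0.75, SE 0.121, adjusted p = 0.000768). Of the endosomal receptors, Tlr7 had 6.96, 4.88 and 6.41 CPM in the mutants and 24.4, 24.1 and 15.6 CPM in the controls. Every mutant was below the lowest control (log2 fold change -1.83, SE 0.213, adjusted p = 9.2e-05). Tlr7 is on the X chromosome, and in both MPP groups the male library was the lowest. In LT-HSC controls the male library, control 2, was the highest, at 5.67 CPM. With sex as a covariate in MPP the log2 fold change was -1.82 (edgeR's quasi-likelihood test, adjusted p = 5.99e-06). Each MPP group held 1 male library, so that fit can say little about sex, whose part was not tested. In bulk samples such as these, fewer cells that express a gene and less RNA per cell cannot be told apart.

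Tlr9 was near the limit of detection. Its counts were 1, 1 and 0 in MPP mutants and 10, 6 and 7 in MPP controls, a ratio of 0.095 with a 95% exact counting interval of 0.0109 to 0.385, which covers counting error only. It did not reach the filter on low counts in any comparison and was not tested. With no filter it was called lower in MPP mutants (log2 fold change -3.18, SE 0.837, adjusted p = 0.00961).

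**Figure D2:**
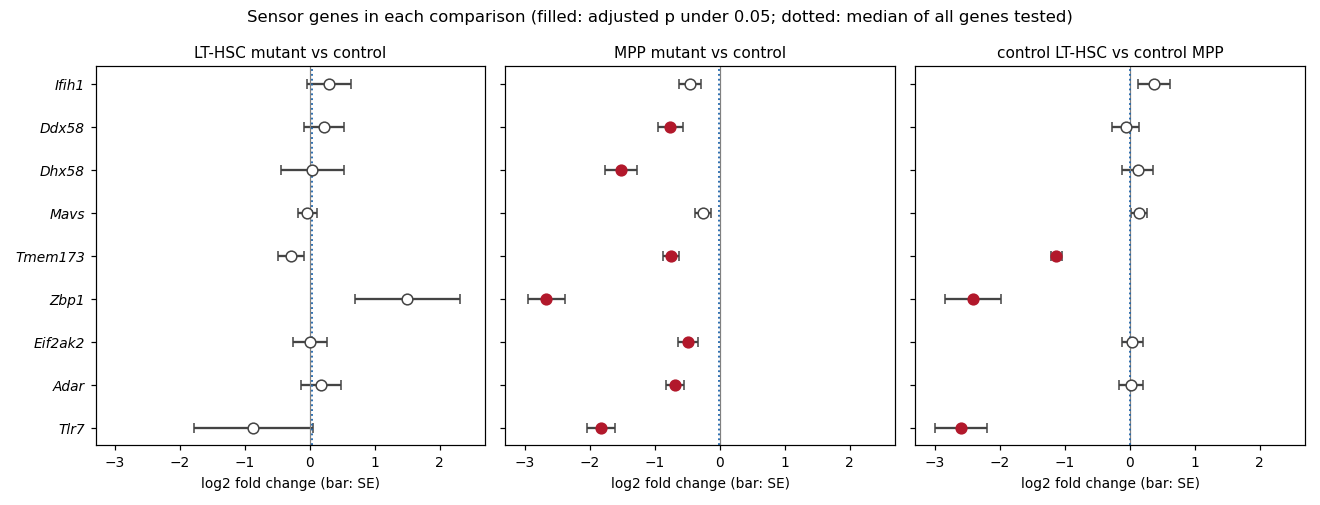
Log2 fold change (horizontal axes) of the 9 sensor genes tested, with its SE as a bar, in LT-HSC mutant over control, MPP mutant over control and control LT-HSC over control MPP; filled points have an adjusted p under 0.05 and the dotted line is the median of all genes tested. All 9 points lie below 0 in MPP, from -2.67 for Zbp1 to -0.26 for Mavs, and none is filled in LT-HSC.

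Several lists of markers of other cell types, though not all, and the control genotype moved with these values in MPP. Of all genes tested in MPP, 18.5% were called lower and 16.5% higher in the mutants, and 51.2% had a log2 fold change under 0. Of the 15 macrophage markers listed, 13 of 14 tested were lower in MPP mutants, and their summed level was 209 to 345 CPM in the mutants and 961 to 1390 CPM in the controls. Cd163 was below the filter on low counts, and Emr1, Csf1r and C1qa were above 0 in every MPP library. Of the 7 plasmacytoid dendritic cell markers, all 6 tested were lower, with a sum of 5.60 to 9.16 CPM in the mutants and 85.3 to 114 CPM in the controls. Most of that sum was Ccr9, at 2.40 ± 0.702 CPM in the mutants and 75.0 ± 14.9 CPM in the controls (SD, n = 3 each). Siglech, a defining marker, was at 0.0562 ± 0.0973 and 5.01 ± 0.373 CPM in the mutants and controls (SD, n = 3 each), and Klk1 was at 0 in all 12 libraries. Of the 8 B lineage markers, all 5 tested were lower, with a sum of 34.6 to 45.4 CPM in the mutants and 78.9 to 97.7 CPM in the controls. All 8 red cell markers were higher in the mutants, by a median of 1.65 on the log2 scale. Among the 9 hepatoblast markers, 3 of 8 tested were lower, with sums of 45.2, 61.2 and 34.5 CPM in MPP mutants and 173, 107 and 306 CPM in MPP controls. The granulocyte and monocyte markers overlapped, with sums of 2540, 2600 and 3240 CPM in MPP mutants and 3790, 3990 and 3050 CPM in MPP controls. The part of the dendritic, B lineage, red cell, hepatoblast and granulocyte markers in the changes of the sensors was not tested.

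With the log2 macrophage sum as a covariate in MPP, 0 of the 9 members were called by edgeR's quasi-likelihood test, and 0 had an unadjusted p under 0.05, against 7 called by the same test without the covariate. Of all 12392 genes tested with the covariate, 383 had an unadjusted p under 0.05. The fold changes in this fit were -1.64 for Zbp1, -0.35 for Tmem173, -0.21 for Eif2ak2, -0.19 for Dhx58, -0.13 for Ddx58, -0.10 for Tlr7 and -0.03 for Adar, and 0.58 for Mavs. The sum separates mutants from controls in MPP, so the sum and the genotype cannot be told apart there, and the fit called 12 of all genes tested against 4337 without it.

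In a joint fit of all 12 libraries, which takes 1 spread from both cell types, 3 of 9 members were called in MPP, Zbp1, Dhx58 and Tmem173, where 21.1% of all 13249 genes tested were. The controls differed in genotype. MPP control 3, the control with vav-cre, was the lowest of the 3 MPP controls for 9 of the 10 members, all but Tlr9. How many of all genes had this order was not counted. With vav-cre controls only, in a joint fit of both cell types, 1 MPP control was left, on which the fold changes rest. The lone control is assumed there to vary like the other groups. The fold changes in that fit were -2.20 for Zbp1, -1.41 for Tlr7, -0.93 for Dhx58, -0.72 for Tmem173, -0.43 for Ddx58, -0.40 for Adar and -0.18 for Eif2ak2. MPP control 3 was also the male control, so the transgene, the sex and the library cannot be told apart there.

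In LT-HSC the same comparison of mutants and controls gave no called sensor. Of the 9 members tested, 0 passed edgeR's quasi-likelihood test, by DESeq2 also 0, and 0 had an unadjusted p under 0.05, where 9.5% of all genes tested did. In this comparison 0.42% of all 12847 genes tested were called. The median log2 fold change of the members was 0.04, against 0.029 over all genes tested. The LT-HSC mutants were far apart from each other, and the intervals are accordingly wide.

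Zbp1 had 2.79, 12.1 and 1.75 CPM in LT-HSC mutants 1 to 3 and 2.19, 3.09 and 0.752 CPM in LT-HSC controls 1 to 3. Mutant 2 alone was above the controls, and the log2 fold change of 1.5 (SE 0.811, adjusted p = 0.62) was 0.18 without it. Dhx58 had 32.8, 78.4 and 17.1 CPM in the mutants and 52.7, 36.5 and 39.8 CPM in the controls. Mutant 2 was again the highest library and mutant 3 the lowest (log2 fold change 0.04, SE 0.49, adjusted p = 0.989). Ddx58 had 58.7, 90.3 and 41.5 CPM in the mutants and 72.9, 51.2 and 45.0 CPM in the controls (log2 fold change 0.22, SE 0.303). Ifih1 had 39.7, 58.3 and 26.8 CPM in the mutants and 49.4, 24.7 and 30.9 CPM in the controls (log2 fold change 0.29, SE 0.342). Both helicases overlapped fully between the groups.

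Adar showed the same order of mutants, with 152, 236 and 106 CPM, against 200, 134 and 119 CPM in LT-HSC controls (log2 fold change 0.17, SE 0.309). Eif2ak2 had 54.1, 72.3 and 33.8 CPM in the mutants and 60.3, 47.6 and 56.8 CPM in the controls (log2 fold change 0.00, SE 0.264). For 6 members, Ifih1, Ddx58, Dhx58, Zbp1, Eif2ak2 and Adar, mutant 2 was the highest and mutant 3 the lowest of the mutants. The share of all genes in that order was not counted. Without mutant 2 the log2 fold changes were -0.07 for Ifih1, -0.16 for Ddx58, -0.78 for Dhx58, -0.32 for Eif2ak2 and -0.22 for Adar, all below 0, and none was called.

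Mavs varied little, with 46.7, 60.0 and 52.2 CPM in LT-HSC mutants and 54.5, 61.3 and 52.8 CPM in LT-HSC controls (log2 fold change -0.04, SE 0.149). Tmem173 was the only member whose LT-HSC groups did not overlap, with 78.6, 77.8 and 46.6 CPM in the mutants and 80.0, 86.3 and 88.6 CPM in the controls. Its log2 fold change of -0.29 (SE 0.199) was not called (adjusted p = 0.702), and 9.76% of all genes tested had LT-HSC mutants below all controls. Tlr7 had 0.246, 4.25 and 1.10 CPM in the mutants and 3.52, 5.67 and 1.28 CPM in the controls (log2 fold change -0.87, SE 0.915, adjusted p = 0.817). That value was -2.32 without mutant 2, -0.35 without mutant 1 and -0.32 without control 2, and was not called in any of these fits. Tlr9 had 0, 0 and 0 counts in the mutants and 0, 0 and 1 in the controls, which cannot show a difference at this depth.

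Summed lists varied between the LT-HSC libraries as well. The summed level of 24 interferon-stimulated genes was 863, 1460 and 505 CPM in LT-HSC mutants 1 to 3 and 1190, 807 and 771 CPM in LT-HSC controls 1 to 3. The macrophage sum was 90.0, 1640 and 258 CPM in the mutants, with 2 of its 15 markers at 0 in mutant 1, and 1210, 1530 and 1760 CPM in the controls. Mutant 2 was thus the highest mutant for both sums, as it was for the 6 sensors above and for Mavs and Tlr7. The macrophage sum was otherwise ordered differently, with mutant 1 the lowest mutant and control 1 the lowest control. With the log2 macrophage sum as a covariate, 0 of the 9 members were called in LT-HSC by edgeR either. Of the members, Zbp1 alone had an unadjusted p under 0.05 there, as did 2147 of all 12847 genes tested. The log2 fold change was 2.25 for Zbp1 (adjusted p = 0.226), with adjusted p between 0.226 and 0.949 over 15 alternatives. Hepatoblast markers summed to 51.1 to 328 CPM in the mutants and 333 to 1150 CPM in the controls, and their part in the values was not tested. Of the controls, those with vav-cre were lower than the control without it for Ifih1, Ddx58, Dhx58, Eif2ak2 and Adar and higher for Tmem173.

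**Figure D3:**
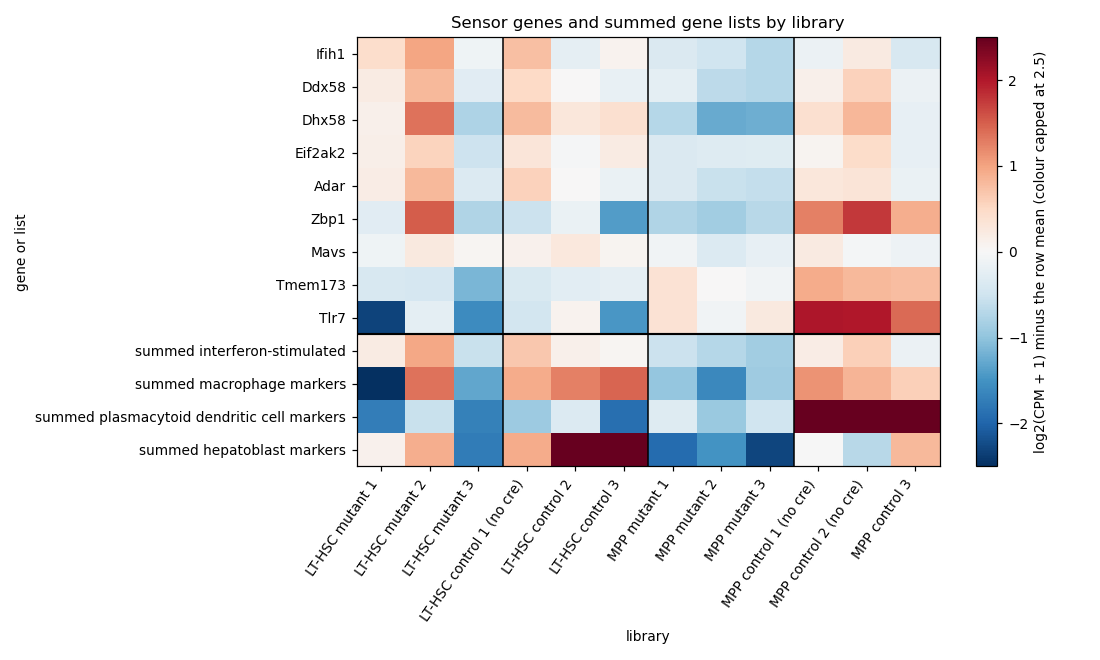
Colour gives log2(CPM + 1) minus the row mean in each library (columns, by group) for 9 sensor genes and for the summed CPM of 4 gene lists (rows); Tlr9 is left out for its low counts. In LT-HSC mutants, column 2 is the reddest for all genes shown but Tmem173, as for the interferon-stimulated sum (1460 CPM). Over all 4 groups, Tmem173 and Tlr7 are reddest in MPP controls.

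Control LT-HSC were set against control MPP to show how the sensors differ between the cell types in the control genotypes. Zbp1, Tlr7 and Tmem173 were lower in control LT-HSC, and the other 6 members tested did not pass. In this comparison 38.5% of all 12834 genes tested were called, and 18.0% of all were called lower in LT-HSC. The control MPP libraries are those used against the MPP mutants above. Tlr7 had the largest log2 fold change of the 9, at -2.60 (SE 0.406, adjusted p = 0.000889), with 3.49 ± 2.20 CPM in control LT-HSC and 21.4 ± 4.99 CPM in control MPP (SD, n = 3 each). Zbp1 had 2.01 ± 1.18 CPM in control LT-HSC and 10.8 ± 3.65 CPM in control MPP (SD, n = 3 each; log2 fold change -2.41, SE 0.428, adjusted p = 0.00186). Tmem173 had 85.0 ± 4.49 CPM in control LT-HSC and 187 ± 9.95 CPM in control MPP (SD, n = 3 each; log2 fold change -1.13, SE 0.0871, adjusted p = 1.34e-05).

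Tlr9, not tested, had 1 count over the 3 LT-HSC controls and 23 over the 3 MPP controls, a ratio of 0.0383 with a 95% exact counting interval of 0.000931 to 0.236. With no filter on low counts, edgeR's quasi-likelihood test called Tlr9 lower in control LT-HSC (log2 fold change -4.23, SE 1.15, adjusted p = 0.0116). For the helicases and Mavs the log2 fold changes were 0.37 (SE 0.249) for Ifih1, -0.06 (SE 0.208) for Ddx58, 0.12 (SE 0.238) for Dhx58 and 0.14 (SE 0.125) for Mavs. Eif2ak2 was at 0.04 (SE 0.167) and Adar at 0.02 (SE 0.189). None of these 6 passed (adjusted p between 0.263 and 0.952). Markers of other cells differed between these controls too. The sum of the plasmacytoid dendritic cell markers was 2.41 to 8.91 CPM in control LT-HSC and 85.3 to 114 CPM in control MPP, that of the B lineage markers 50.7 to 64.4 and 78.9 to 97.7 CPM in control LT-HSC and control MPP, and that of the granulocyte and monocyte markers 614 to 1710 and 3050 to 3990 CPM. In the other direction, 9 of 14 macrophage markers and 9 of 9 hepatoblast markers tested were higher in control LT-HSC. Of all genes tested, 20.5% were called higher there. The part of the dendritic, B lineage, granulocyte and hepatoblast markers in these differences was not tested, and with the macrophage covariate the same 3 members were called. With vav-cre controls only, in the joint fit by edgeR, 1 MPP control was left. The log2 fold changes were then -2.23 for Tlr7, -2.04 for Zbp1 and -1.09 for Tmem173.

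The order of the 4 groups differed between members. For Tmem173, MPP controls were highest, then MPP mutants, then LT-HSC controls, and LT-HSC mutants were lowest, with no overlap between any neighbours. Tlr7 and Tlr9 had the same order of means, but only MPP controls were apart from the next group. MPP mutants had the lowest mean of the 4 groups for the other 7 members. They were apart from the next group for Ddx58, Dhx58 and Adar and overlapped it for Ifih1, Mavs, Zbp1 and Eif2ak2. How many of all genes had such orders or gaps was not counted.

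Whether the genotype effect differed between LT-HSC and MPP was tested as an interaction over all 12 libraries, given as the LT-HSC log2 fold change minus that in MPP. No member passed, of 9 tested, where 0.377% of all 13249 genes did. At an unadjusted p under 0.05 there were 3 members, Zbp1, Dhx58 and Ddx58, where 12.4% of all genes tested had one, and by DESeq2 the count of calls was 1, Zbp1. All 9 differences were above 0, with a median of 0.79 against -0.012 over all genes tested, and 51.5% of all genes were below 0. Without LT-HSC mutant 2, that of Tlr7 was -0.52. The interaction uses the libraries of the comparisons above again.

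Zbp1 had the largest difference of the 9, at 4.08 (SE 0.928, adjusted p = 0.0832). It passed by DESeq2 (4.14, adjusted p = 0.000986), with the replicate number as a block (3.80, adjusted p = 0.044), with the macrophage covariate (3.76, adjusted p = 0.0427) and without LT-HSC mutant 3 (4.51, adjusted p = 0.00659), with adjusted p between 0.000986 and 0.825 over 20 alternatives. Without LT-HSC mutant 2, the library with the highest Zbp1 in LT-HSC, the difference was 2.82 (adjusted p = 0.0984). Dhx58 differed by 1.48 (SE 0.624, adjusted p = 0.358) and passed only without LT-HSC mutant 3 (1.86, adjusted p = 0.0381, with adjusted p between 0.0381 and 0.899 over 20 alternatives), and was 0.71 without LT-HSC mutant 2 (adjusted p = 0.527). Ddx58 differed by 0.91 (SE 0.395, adjusted p = 0.376). The differences of Ifih1 (0.68, SE 0.418) and Tmem173 (0.39, SE 0.247) did not pass either.

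Other genes of the sensing pathways were counted from lists chosen by function. In MPP mutants the counts below are out of the genes tested, with the same background of 16.5% called higher and 18.5% called lower, and no set test was made. In the lists below, in order, 16, 7, 9, 12, 16, 6, 14 and 24 genes were tested. By edgeR's quasi-likelihood test, 62 genes of these lists were called in MPP mutants, where 35.0% of all genes tested were. The count was 33 in the joint fit of 12 libraries, where 21.1% of all were called. It was 0 with the macrophage covariate, where 0.0968% of all were called. With vav-cre controls only, 1 MPP control was left, and calls of list genes are not counted here. In LT-HSC mutants 0 genes of these lists were called, where 0.42% of all genes tested were, and 2 in the joint fit, where 1.89% were.

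Downstream of the RNA helicases, 5 of 16 signalling genes were lower and 1 was higher in MPP mutants (median log2 fold change -0.09). Irf7, a transcription factor of interferon genes, had 14.8 ± 3.74 CPM in MPP mutants and 54.9 ± 20.9 CPM in MPP controls (log2 fold change -1.91, SE 0.265, adjusted p = 0.000292). Ikbke, a kinase that phosphorylates IRF factors, had 19.0 ± 3.12 CPM in the mutants and 34.6 ± 4.25 CPM in the controls (log2 fold change -0.88, SE 0.153, adjusted p = 0.00123). Rnf135, a ubiquitin ligase that activates Ddx58, was lower (-0.56), while Rnf125, a ubiquitin ligase known to mark Ddx58 and Mavs for degradation, was higher, at 12.8 ± 1.63 CPM in the mutants and 6.94 ± 0.839 CPM in the controls (log2 fold change 0.87, SE 0.172, adjusted p = 0.00275). The SDs here and in the next paragraphs are over 3 libraries per group.

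Around Tmem173, 4 of 7 genes of cytosolic DNA sensing were lower in MPP mutants (median -0.29). Mb21d1, which encodes cGAS, had 18.6 ± 2.60 CPM in the mutants and 31.7 ± 3.37 CPM in the controls (log2 fold change -0.78, SE 0.144, adjusted p = 0.0018). The HIN-domain genes Ifi204 and Ifi203 had log2 fold changes of -3.78 (SE 0.272) and -1.13 (SE 0.114), but such genes form a family of close copies whose reads RSEM may divide between them. Lrrfip1 was slightly lower (-0.29), and Aim2, a DNA sensor of the inflammasome, was not called (0.03, SE 0.12, and -0.03 under upper-quartile scaling). Of 9 genes tested for nucleases and nucleotide control, 2 were lower: Trex1, the main cytosolic DNA exonuclease, with 24.5 ± 1.52 CPM in the mutants and 55.4 ± 8.47 CPM in the controls (-1.19, SE 0.132, adjusted p = 6.61e-05), and Samhd1, which depletes deoxynucleotides (-0.62, SE 0.105, adjusted p = 0.00104).

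Around Tlr7 and Tlr9, 8 of 12 genes of the endosomal pathway were lower (median -0.46). Unc93b1, the chaperone that carries these receptors to endosomes, had 78.5 ± 9.92 CPM in MPP mutants and 179 ± 14.9 CPM in MPP controls (log2 fold change -1.21, SE 0.112, adjusted p = 2.16e-05). Irf5, a transcription factor downstream of the receptors, had 26.7 ± 4.09 CPM in the mutants and 97.7 ± 11.7 CPM in the controls (log2 fold change -1.88, SE 0.137, adjusted p = 4.52e-06). The related receptors Tlr8 (-3.68, SE 0.413) and Tlr3 (-2.29, SE 0.398) were lower as well. Tlr8 had 0.355 ± 0.0947 CPM in the mutants and 4.63 ± 1.60 CPM in the controls, and Tlr3 had 0.381 ± 0.118 CPM in the mutants and 1.89 ± 0.435 CPM in the controls.

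Around Eif2ak2 and Adar, 8 of 16 genes were lower and 3 higher (median -0.54). Oas2 and Oasl2, of the family that makes the messenger activating RNase L, had log2 fold changes of -1.62 (SE 0.284, adjusted p = 0.00127) and -1.18 (SE 0.239, adjusted p = 0.00311). The higher genes were Ppp1r15a, a phosphatase subunit that reverses the translation block set by Eif2ak2, with 57.3 ± 9.40 CPM in MPP mutants and 32.0 ± 2.30 CPM in MPP controls (0.82, SE 0.131, adjusted p = 0.000689), Atf4, a transcription factor of the same stress response (0.64, SE 0.108, adjusted p = 0.00102), and Eif2s1, which encodes the substrate of Eif2ak2 (0.45). Among the 6 necroptosis genes downstream of Zbp1, only Cflar, an inhibitor of Casp8, was called (-0.41, SE 0.107, adjusted p = 0.0115). Ripk3 (-0.06, SE 0.091) was not called.

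Interferon itself was hardly seen. Of 20 interferon genes listed, between 18 and 20 were at 0 in each library, and their summed level was at most 0.329 CPM in any library, so none was tested. Of 14 genes for interferon receptors and signalling, 10 were lower in MPP mutants (median -0.61), among them the receptor subunit Ifnar1 (-0.69, SE 0.0952), Irf9 (-0.93, SE 0.14) and Irf1 (-0.94, SE 0.119). Of 24 interferon-stimulated genes that are no sensors, 20 were lower and 0 higher (median -1.11), such as Trim30a (-1.72, SE 0.184), Ifit3 (-2.67, SE 0.307), Ifi27l2a (-3.43, SE 0.448) and Parp14 (-1.04, SE 0.152). Their summed level was 407 to 515 CPM in MPP mutants and 674 to 1120 CPM in MPP controls.

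**Figure D4:**
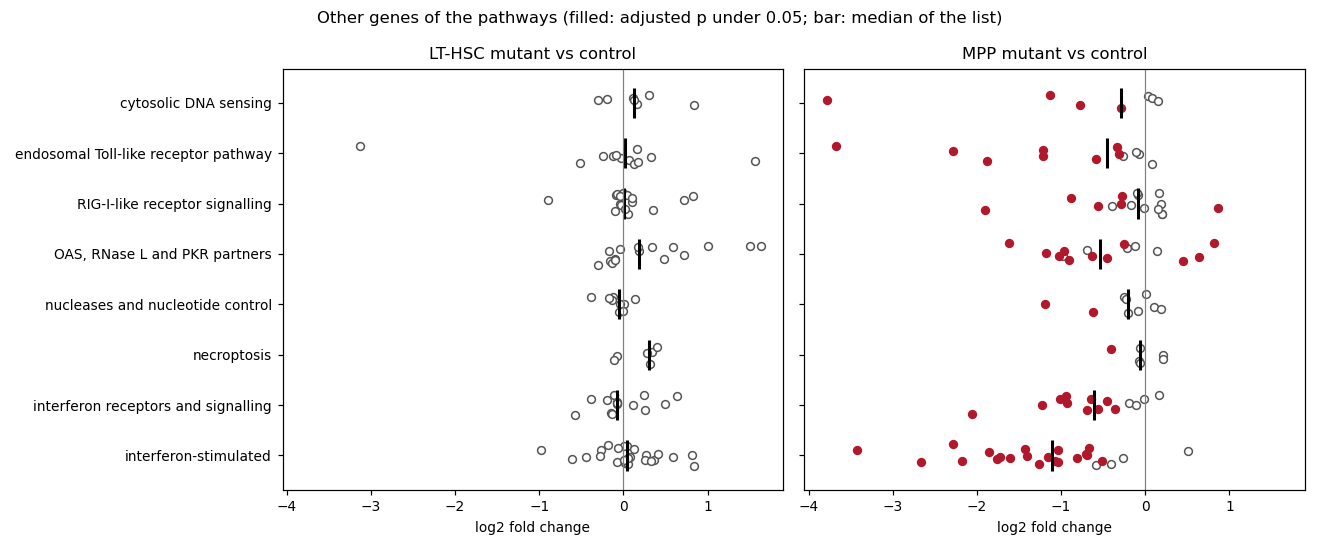
Log2 fold change (horizontal axes) of each tested gene in 8 pathway lists (rows), in LT-HSC mutant over control and MPP mutant over control; filled points have an adjusted p under 0.05 and bars mark the median of the list. In MPP the medians run from -1.11 (interferon-stimulated) to -0.06 (necroptosis), and in LT-HSC no point is filled.

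In the controls, 34 genes of the same lists differed between LT-HSC and MPP by edgeR's quasi-likelihood test, where 38.5% of all genes tested did. Again 16, 7, 9, 12, 16, 6 and 14 genes were tested, in the order of the MPP lists, and the interferon-stimulated list held 24. No set test was made here either. The count was 22 in the joint fit, where 31.3% of all were called, and 19 with the macrophage covariate, where 29.4% were. With vav-cre controls only, 1 MPP control was left, and calls of list genes are not counted here. Of 12 endosomal pathway genes, 6 were lower and 0 higher in control LT-HSC than in control MPP, with Irf5 at -1.34 (SE 0.112), Unc93b1 at -0.75 (SE 0.0866), Tlr13 at -2.04 (SE 0.39) and Slc15a4 at -0.90 (SE 0.267), next to a background of 20.5% higher and 18.0% lower. Of 7 cytosolic DNA sensing genes, 4 were lower: Ifi203 (-0.77), Ifi204 (-2.09), Lrrfip1 (-0.43) and Aim2 (-0.64). Of 16 signalling genes of the RNA helicases, 3 were higher in control LT-HSC (Rnf125 at 1.92, Ikbke at 0.60 and Rnf135 at 0.43) and 1 was lower (Nlrx1, a mitochondrial protein that restrains Mavs, at -1.04). Around Eif2ak2, 5 of 16 were higher and 3 lower, with Ppp1r15a at 1.22, Ddit3 at 0.80, Adarb1 at 1.16 and Oas3 at -1.57. Of the 24 interferon-stimulated genes 3 were higher and 3 lower, with Ifi27l2a at -2.74, Ifi44 at 2.62, Ifit3 at -1.16 and Rsad2 at 1.02. Of 14 interferon receptor and signalling genes 2 were higher and 2 lower (Jak1 at 0.54, Irf2 at 0.30, Ifngr2 at -0.78 and Ifnar2 at -0.50). Of 9 nuclease genes 2 were lower (Rnaseh2b at -0.42 and Trex1 at -0.38), and no necroptosis gene was called.

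Across the 12 libraries the sensors split by pattern, described here by Pearson's r of log2 CPM, with no test, since the libraries fall into groups and share their preparation. Ddx58 and Adar had r = 0.97, Dhx58 had r = 0.94 with Ddx58 and 0.94 with Adar, Eif2ak2 had r = 0.92 with Dhx58, and Ifih1 had r = 0.90 with Adar. Tmem173 and Tlr7 had r = 0.82 with each other, but Tmem173 had r = 0.04 with Adar and Tlr7 had 0.07. Zbp1 lay between, at r = 0.65 with Ddx58 and 0.61 with Tlr7. Mavs had its highest r among the members with Dhx58, at 0.74.

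The 2 genes outside the members with the highest r over the 12 libraries were found for each of the 9 members with a mean of at least 1 CPM. They were Sp100 (0.985) and Oas1a (0.977) for Ddx58, Xaf1 (0.973) as the second for Dhx58, Oasl2 (0.968) and Igtp (0.962) for Ifih1, Irf7 (0.984) as the first for Adar, and Parp9 (0.936) and Samd9l (0.924) for Eif2ak2. For Tmem173 they were Tnfaip8 (0.989) and Plekha1 (0.982), and for Tlr7 they were Aoah (0.956) and Ccl9 (0.955). For Zbp1 they were Id3 (0.905) and Slc5a11 (0.901), and for Mavs Slc7a8 (0.91) and Ubap1 (0.898). Ccl9 shows the pattern of Tlr7 in its levels, at 6.41 ± 5.82 CPM in LT-HSC mutants, 10.6 ± 2.80 CPM in LT-HSC controls, 16.5 ± 5.67 CPM in MPP mutants and 79.3 ± 20.3 CPM in MPP controls (SD, n = 3 each).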

How the data were processed

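The data are RNA sequencing libraries, 3 in each of 4 groups. Per the labels' protocols, lineage-negative fetal liver cells were enriched and sorted, and the low-input kit named there is not stranded. STAR and RSEM were run on mm10, per the submitters' processing notes, with no version or setting given in the sources used here. Each deposited table holds RSEM's expected count and TPM per gene, per the file headers. Between 7.13% and 7.76% of the expected counts were fractional, because RSEM divides reads that fit several genes.

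The expected counts, rounded, went into edgeR 4.0.16 (R 4.3.3), with its quasi-likelihood test, TMM scaling and filterByExpr by group (minimum count 10, minimum total 15). Adjustment was by Benjamini-Hochberg over all genes tested, with a threshold of 0.05. Genotype was tested within each cell type, cell type within controls, and the interaction over all libraries. CPM uses TMM over the 12 libraries, and correlations use log2 CPM with a prior count of 2. The test was checked on simulated data with the same spread for every gene and library. The wide spread of the LT-HSC mutants was not simulated, so the check does not cover it. Alternatives were DESeq2 1.42.0, other scalings, no filter, a replicate block, sex and macrophage covariates, a joint fit, vav-cre controls only, and each library left out.

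All members are named, with up to 4 called genes of smallest p per pathway list and comparison, and the 2 genes most like each member. In MPP, Aim2, Eif2s1 and Ripk3 were named after their values were seen, as were the levels of Ccl9. The members and lists were chosen with earlier results of these data known. Replicates were numbered by the titles, and the files' own names number some libraries otherwise. Same-numbered LT-HSC mutants and controls deviated together (r across genes of 0.108, 0.147 and 0.175) although the meaning of the number is not labelled. The values reported are from the fit without the replicate block, which was run as an alternative. Those of MPP did not (-0.0245, -0.212 and -0.177). A gene that the naming rule picks is not reported here.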

Additional observations from a re-analysis of the deposited data

Results flagged for a closer look

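The genotype effect differed between LT-HSC and MPP, by edgeR's interaction test with Benjamini-Hochberg adjustment over all genes, for 3 genes of the pathway lists, and for no sensor. Irf5, downstream of Tlr7 and Tlr9, had log2 fold changes of -0.03 (SE 0.246) in LT-HSC and -1.88 (SE 0.137) in MPP, a difference of 1.79 (SE 0.289, adjusted p = 0.0288). Unc93b1, the chaperone of these receptors, had -0.12 (SE 0.137) in LT-HSC and -1.21 (SE 0.112) in MPP, a difference of 1.02 (SE 0.179, adjusted p = 0.0417). Trex1, the DNA exonuclease, had -0.12 (SE 0.143) in LT-HSC and -1.19 (SE 0.132) in MPP, a difference of 1.0 (SE 0.183, adjusted p = 0.0441). With the macrophage covariate the calls were kept, at 1.78 for Irf5, 1.02 for Unc93b1 and 1.0 for Trex1 (adjusted p = 0.0108, 0.0309 and 0.0388). With the replicate block they were lost, at 1.74, 1.01 and 0.99 (adjusted p = 0.0579, 0.0646 and 0.0564), as they were with sex as a covariate and with vav-cre controls only. Irf5 lost its call in 8 of the 12 fits that left out 1 library, and Unc93b1 and Trex1 each in 11 of the 12. Over 20 alternatives the difference was 1.47 to 1.96 for Irf5 (adjusted p between 1.65e-06 and 0.678), 0.92 to 1.14 for Unc93b1 (3.89e-05 to 0.702) and 0.88 to 1.11 for Trex1 (0.000241 to 0.71), so the direction was kept in all of them.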

How the results depend on the processing

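The counts of sensors called were 0 in LT-HSC under all alternatives run. With no filter on low counts, Tlr9 was tested too, and was called in MPP and between controls. In MPP, 7 were called, and the count was 3 in a joint fit of 12 libraries, 0 with the macrophage covariate, 0 with vav-cre controls only, and 6 to 8 leaving out each library. Between controls, 3 were called, and 0 with vav-cre controls only. For the interaction, 0 were called, and the count was 1 by DESeq2, 1 with the replicate block, 1 with the macrophage covariate, and 0 to 2 leaving out each library. The replicate block changed no other sensor's call, and ended 4 calls of named pathway genes. The vav-cre fit had fewer controls and took 1 spread from both cell types, and the cause of these changes was not tested.

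Several log2 fold changes changed sign. In LT-HSC, Eif2ak2 was -0.0077 with DESeq2 size factors, -0.04 with upper-quartile scaling, -0.0093 with no filter, -0.0073 by DESeq2, -0.06 with the block, -0.09 with sex and -0.04 in the joint fit. Dhx58 was -0.01 with upper-quartile scaling, -0.23 with the block, -0.06 with sex and -0.02 in the joint fit. Mavs was 0.03 with sex and 0.16 with the macrophage covariate, and Tlr7 was 0.20 with that covariate. In MPP with it, Mavs was 0.58, Cflar 0.05, Ikbke 0.36, Lrrfip1 0.07 and Ripk3 0.42, and in LT-HSC Irf5 was 0.35. Aim2 was -0.03 in MPP with upper-quartile scaling. Between controls, Adar was -0.0049 with the block and Ddx58 was 0.10 with the macrophage covariate. Leaving out each library in LT-HSC gave -0.32 to 0.25 for Eif2ak2, -0.78 to 0.42 for Dhx58, -0.17 to 0.04 for Mavs, -0.07 to 0.61 for Ifih1, -0.16 to 0.45 for Ddx58, -0.22 to 0.42 for Adar, -0.39 to 0.15 for Irf5 and -0.25 to 0.0033 for Unc93b1. In MPP it gave -0.06 to 0.1 for Aim2 and -0.09 to 0.01 for Ripk3. Between controls it gave -0.23 to 0.16 for Adar, -0.28 to 0.14 for Ddx58, -0.12 to 0.39 for Dhx58 and -0.11 to 0.23 for Eif2ak2, and for the interaction -0.52 to 1.39 for Tlr7.

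Over all genes, LT-HSC gave 54 calls, and 260 by DESeq2, 250 in the joint fit, 23 with the macrophage covariate, 15 with sex and 13 to 102 leaving out each library. MPP gave 4337, and 2792 in the joint fit, 125 with vav-cre controls only, 12 with the macrophage covariate and 2774 to 4756 leaving out each library. Controls gave 4942, and 327 with vav-cre controls only. The interaction gave 50, and 334 by DESeq2, 87 with no filter, 84 with the macrophage covariate, 24 with the block, 11 with sex, 0 with vav-cre controls only (829 at an unadjusted p under 0.05) and 1 to 885 leaving out each library. Depth limits Tlr9, and Zbp1 in LT-HSC rests on few counts.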
